A study of Saccharomyces cerevisiae with 180 samples.

Results

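The respiratory chain and ATP synthase of yeast were followed through 33 nuclear genes, chosen by symbol out of 5605 genes on the arrays. They were 4 genes of complex II, 2 NADH dehydrogenase genes, 9 genes of complex III, 7 of complex IV and 11 of the ATP synthase. Each of the 33 genes had 1 probe. RNA of 90 Saccharomyces cerevisiae cultures was hybridised on 180 two-colour arrays against 1 pool of RNA from strain BY4716. The cultures were 2 of RM11, a haploid derivative of a vineyard isolate, 86 haploid segregants of a cross of BY4716 with RM11-1a, and 2 of BY4716, a laboratory strain of S288c background. The parental RM11 cultures were read as RM11-1a. RM11 is a MATa strain with LEU2, URA3 and HO deleted, and BY4716 is a MATalpha strain with LYS2 deleted. Every segregant is 1 haploid genotype grown once, and growth conditions are not given in the sources used here. The series asks how regulatory differences between the parents act on transcript levels in their progeny.

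The mitochondrial respiratory chain passes electrons from NADH and succinate through ubiquinone and cytochrome c to oxygen, and the ATP synthase uses the proton gradient that complexes III and IV build. Budding yeast has no proton-pumping complex I and uses single-subunit NADH dehydrogenases instead. The core subunits of complexes III and IV and of the membrane part of the ATP synthase that are made from mitochondrial DNA are not among the members, so the genes described here are the nuclear share. On glucose, yeast ferments and holds many of these genes low, and the Hap2/3/4/5 complex raises them when glucose is gone or the cells respire.

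The values are log ratios of a culture over the BY4716 pool, read as log2, and each culture is the mean of its 2 arrays with the dyes exchanged. A value of 1 is a doubling over the pool. The arrays of a culture correlated over genes with r of 0.896 and 0.831 in RM11, a median of 0.725 in the segregants (lowest 0.371, highest 0.896), and 0.109 and 0.0232 in BY4716, which is the strain of the pool. Of 10 measured strain marker genes, 10 went the way the genotypes require, and they set the direction of the ratios. In 6 of 86 segregants a whole chromosome stood above the rest of the genome, with a median log2 ratio over its genes between 0.64 and 0.82, where no other chromosome median of any segregant exceeded 0.14. Chromosome II was raised in the segregants titled 8-1-a, 10-1-c, 13-2-c and 15-5-b, chromosomes IV and IX in 14-6-d, and chromosome XIII in 9-4-d. Results over segregants are given with and without these 6, a setting chosen after the data were seen.

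The first comparison asked which of these genes differ between the parents. In every complex most of the genes tested were higher in RM11. Of 33 genes, 29 had a value on all 8 parental arrays. Of these 29, 27 were higher in RM11 and 0 were lower with limma at a Benjamini-Hochberg adjusted p under 0.05, against 18.2% of all 3256 genes tested called higher and 8.54% called lower. The median difference, RM11 minus BY4716, was 1.20 on the log2 scale over the 29 genes and 0.10 over all genes tested, and 29 of 29 differences were positive. Both RM11 cultures were above both BY4716 cultures in 28 of 29 genes and below both in 0, beside 46.3% of all genes tested above and 23.1% below. By complex, 3 of 3 genes of complex II, 2 of 2 NADH dehydrogenase genes, 5 of 6 of complex III, 6 of 7 of complex IV and 11 of 11 of the ATP synthase passed as higher. Their median log2 differences were 1.20 for complex II, 1.34 for the NADH dehydrogenases, 1.26 for complex III, 1.36 for complex IV and 1.05 for the ATP synthase. The difference between complexes was not tested. In bulk cultures, less RNA of a gene per cell and fewer cells that make it cannot be told apart.

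**Figure D1:**
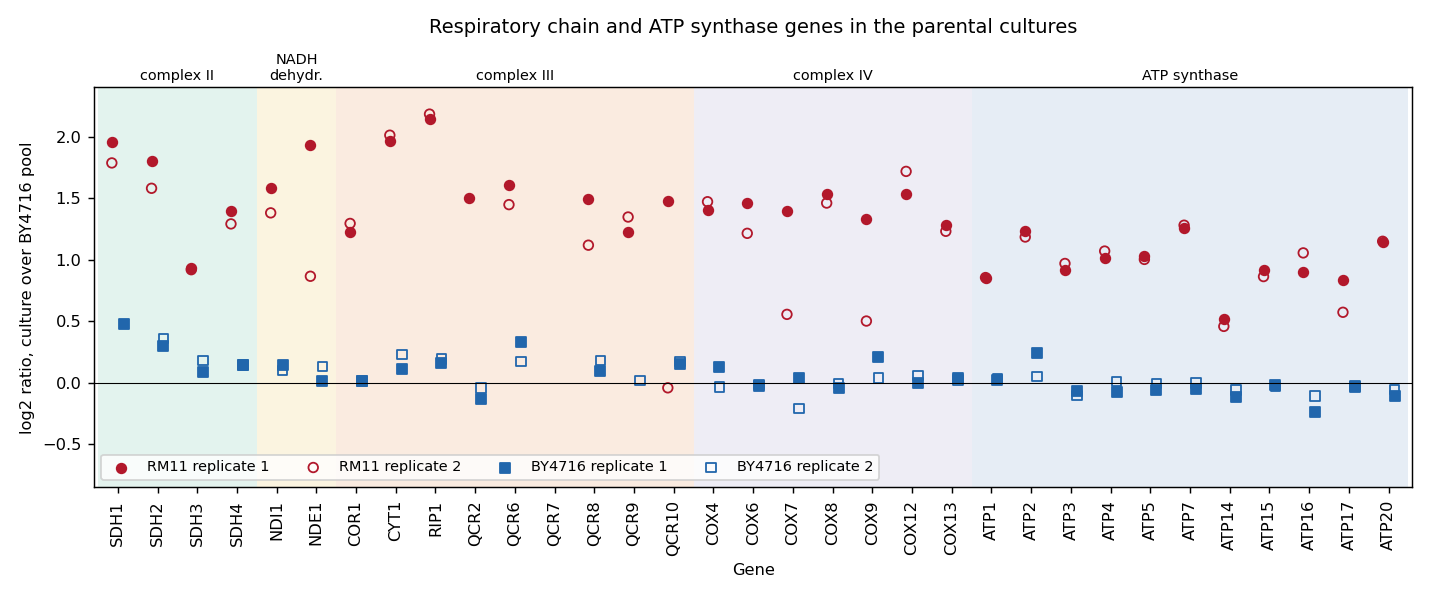
Log2 ratio over the BY4716 pool (vertical axis) of each gene (horizontal axis, grouped by complex) in the 2 RM11 cultures (circles) and the 2 BY4716 cultures (squares). RM11 lies above BY4716 for all genes with 4 values except QCR10, where RM11 replicate 2 stood at -0.04. QCR7 has no point because no parental culture had it on both arrays, and SDH1, QCR2 and QCR9 lack 1 point each.

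Complex II, succinate dehydrogenase, joins the TCA cycle to the chain. SDH2, its iron-sulfur subunit, had log2 ratios of 1.80 and 1.58 in the RM11 cultures, against 0.30 and 0.36 in the BY4716 cultures. Both RM11 cultures were above both BY4716 cultures, and the difference was 1.36 (SE 0.10, n = 2 cultures each, limma adjusted p = 0.000946). SDH4, a membrane anchor subunit, had 1.40 and 1.29 in RM11 and 0.14 in each BY4716 culture, a difference of 1.20 (SE 0.08, limma adjusted p = 0.000681). SDH3, the cytochrome b subunit, was the least changed of the 3 tested, with 0.93 and 0.92 in RM11 and 0.08 and 0.18 in BY4716 (difference 0.79, SE 0.08, limma adjusted p = 0.00252). SDH1, the flavoprotein subunit, lacked a value on 1 BY4716 array. It had 1.96 and 1.79 in RM11 and 0.48 in BY4716 replicate 1, and with at least 1 array in each culture its difference was 1.49 (SE 0.11, limma adjusted p = 0.00221).

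NDI1 oxidises NADH inside the mitochondrion and NDE1 oxidises cytosolic NADH at the outer face of the inner membrane. NDI1 had log2 ratios of 1.58 and 1.38 in RM11, against 0.14 and 0.10 in BY4716, a difference of 1.36 (SE 0.10, limma adjusted p = 0.000805). NDE1 had 1.93 and 0.86 in RM11 and 0.01 and 0.13 in BY4716, a difference of 1.33 (SE 0.34, limma adjusted p = 0.0421). The RM11 cultures stood apart from each other for NDE1, and the 2 arrays of replicate 2 also did, at -0.35 and 2.08, while those of replicate 1 gave 1.78 and 2.09.

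Complex III, the cytochrome bc1 complex, held the 2 largest differences of the 29. RIP1, the Rieske iron-sulfur protein, had log2 ratios of 2.14 and 2.18 in RM11 and 0.16 and 0.19 in BY4716. It was 3.96-fold higher in RM11 (log2 difference 1.99, SE 0.08, limma adjusted p = 0.000108). CYT1, cytochrome c1, had 1.96 and 2.01 in RM11 and 0.11 and 0.23 in BY4716, and was 3.52-fold higher in RM11 (log2 difference 1.82, SE 0.09, limma adjusted p = 0.000193). The replicate cultures of each strain lay close together for both genes. COR1, a core protein, and QCR6 and QCR8, accessory subunits, differed by 1.25, 1.27 and 1.17 on the log2 scale and passed the test. QCR2, the other core protein, and QCR9, an accessory subunit, each lacked 1 array. With at least 1 array in each culture their differences were 1.60 (SE 0.09, limma adjusted p = 0.000778) and 1.21 (SE 0.10, limma adjusted p = 0.00245).

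QCR10 and QCR7, both accessory subunits, gave no call. QCR10 had log2 ratios of 1.48 and -0.04 in RM11, against 0.15 and 0.17 in BY4716 (difference 0.56, SE 0.47, limma adjusted p = 0.421). The value of RM11 replicate 2 was the mean of -1.44 and 1.35 on its 2 arrays. With replicate 2 taken from the array whose title names Cy5 alone, a setting chosen after the data were seen, the difference was 1.25 (SE 0.09, limma adjusted p = 0.00252). QCR7 had a value on 3 of 8 parental arrays, 0.29 on 1 RM11 array and -0.27 and -0.01 on 2 BY4716 arrays, and was not tested.

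Complex IV, cytochrome c oxidase, had log2 differences between 0.79 and 1.60. COX12 (subunit VIb) had log2 ratios of 1.53 and 1.72 in RM11 and -0.001 and 0.06 in BY4716, a 3.02-fold higher level in RM11 (log2 difference 1.60, SE 0.10, limma adjusted p = 0.000465). COX8 (subunit VIII) had 1.53 and 1.46 in RM11 and -0.04 and -0.01 in BY4716 (difference 1.52, SE 0.08, limma adjusted p = 0.000307). Both genes were low in both BY4716 cultures and high in both RM11 cultures. COX4, COX6 and COX13 also passed, with log2 differences of 1.39, 1.36 and 1.22.

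The remaining 2 subunits of complex IV had disagreeing arrays in RM11 replicate 2. COX7 had log2 ratios of 1.39 and 0.56 in RM11 and 0.04 and -0.21 in BY4716, a difference of 1.06 that passed narrowly (SE 0.28, limma adjusted p = 0.0454). COX9 had 1.33 and 0.50 in RM11 and 0.21 and 0.04 in BY4716, a difference of 0.79 that did not pass (SE 0.27, limma adjusted p = 0.0888). On the arrays of replicate 2, COX7 read -0.21 and 1.32 and COX9 read 1.18 and -0.18. The deviating array was the one titled Cy3 for COX7, NDE1 and QCR10 and the one titled Cy5 for COX9. With the array titled Cy5 alone for that culture, NDE1 differed by 1.94, COX7 by 1.44 and COX9 by 0.45, the last with a limma adjusted p of 0.550.

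All 11 ATP synthase genes passed as higher in RM11, with log2 differences between 0.57 and 1.30. ATP7, subunit d of the stalk, had log2 ratios of 1.25 and 1.28 in RM11 and -0.05 and -0.004 in BY4716, the largest of the 11 differences (1.30, SE 0.08, limma adjusted p = 0.000454). ATP20, subunit g, which takes part in dimer formation, had 1.14 and 1.15 in RM11 and -0.11 and -0.06 in BY4716 (difference 1.23, SE 0.08, limma adjusted p = 0.000521). ATP14, subunit h, changed least, with 0.52 and 0.46 in RM11 and -0.11 and -0.06 in BY4716, which is 1.49-fold (log2 difference 0.57, SE 0.08, limma adjusted p = 0.00725). In 11 of 11 ATP synthase genes both RM11 cultures were above both BY4716 cultures. The catalytic head genes ATP1 (alpha), ATP2 (beta) and ATP3 (gamma) differed by 0.83, 1.06 and 1.03, and ATP16 (delta) and ATP15 (epsilon) by 1.15 and 0.91. ATP4 (subunit b), ATP5 (the oligomycin sensitivity protein) and ATP17 (subunit f) differed by 1.08, 1.05 and 0.73.

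Genes of the same pathway outside the 33 were counted in lists that were chosen with earlier results of these data known. Among other electron carriers and subunits, 7 of 10 tested genes were higher and 1 was lower in RM11 (median log2 difference 0.97). The largest rises were COX5A, the aerobic form of subunit V of complex IV (log2 difference 1.89, SE 0.09, limma adjusted p = 0.000188), and CYC7, the second form of cytochrome c (1.84, SE 0.08, limma adjusted p = 0.000138). COX5B, the hypoxic form of subunit V, was lower in RM11 (-0.92, SE 0.24, limma adjusted p = 0.0464). The forms of subunit V went opposite ways, and an aerobic or hypoxic pattern over the list was not tested.

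All 10 tested TCA cycle genes were higher in RM11, led by IDH1 (log2 difference 1.10), a subunit of isocitrate dehydrogenase, and MDH1 (0.95), malate dehydrogenase, with a list median of 0.64. Of the mitochondrial carriers and porin, 5 of 6 were higher, led by the dicarboxylate carrier DIC1 (1.71) and the phosphate carrier MIR1 (1.499). Of the mitochondrial ribosome, 33 of 47 genes were higher and 0 lower (median 0.41), with MRP21 (0.78) and MRPL35 (0.75) at the top. Of the assembly factors, 6 of 20 were higher and 0 lower (median 0.26), led by TCM62 (0.64) and CBP6 (0.57). Of ubiquinone and heme synthesis, 2 of 12 were higher, HEM1 (0.81) and HEM2 (0.63), and 1 was lower, HEM3 (-1.44). These counts were near the shares of all genes tested, 18.2% higher and 8.54% lower, and the list median was 0.02.

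Lists outside the mitochondrion moved less evenly. Of glycolysis and fermentation, 6 of 12 tested genes were lower and 0 higher in RM11 (median log2 difference -0.46), and the largest falls that passed were those of HXK2, a hexokinase (-0.90), and TDH1, a glyceraldehyde-3-phosphate dehydrogenase (-0.88). Of the general stress response, 8 of 24 were higher, led by the catalase CTT1 (2.48) and RTN2 (2.32), and 3 were lower, led by the small heat shock protein HSP26 (-3.47) and SSA4 (-0.94). Of ribosome biogenesis, 1 of 40 was lower, NOC3 (-0.43), and 0 were higher. Among regulators of respiratory genes, 3 of 12 were higher and 3 lower, including MIG1 (0.65) and MIG2 (-0.57), repressors that act in glucose. The part of these lists in the difference of the respiratory genes was not tested.

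The second comparison asked whether the genes vary among segregants by more than repeat cultures of a parent. Of 29 genes tested, 25 passed a one-sided F test against the moderated error of the limma fit, beside 58.4% of all 3193 genes tested. The median SD over segregants was 0.44 on the log2 scale against an error SD of 0.09, while all genes had medians of 0.25 and 0.09. The 4 that did not pass were NDE1, QCR10, COX7 and COX9, with adjusted p from the limma error of 0.0701, 0.384, 0.120 and 0.219. They had the widest gaps between the 2 arrays of RM11 replicate 2 among the members, as given above, and error SDs between 0.27 and 0.47. The count depends on every parental culture, since leaving 1 out leaves the error to the 2 cultures of the other strain. Without either BY4716 culture few genes of the series passed, and of the members only RIP1, CYT1 and COX8. Without either RM11 culture nearly all genes passed. The error SD of CYT1, for example, was 0.09 with all parental cultures. It was 0.12 without either BY4716 culture and 0.07 without RM11 replicate 2. Without the 6 segregants with a raised chromosome, 25 of 29 passed, beside 1481 of all 3192 genes.

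**Figure D2:**
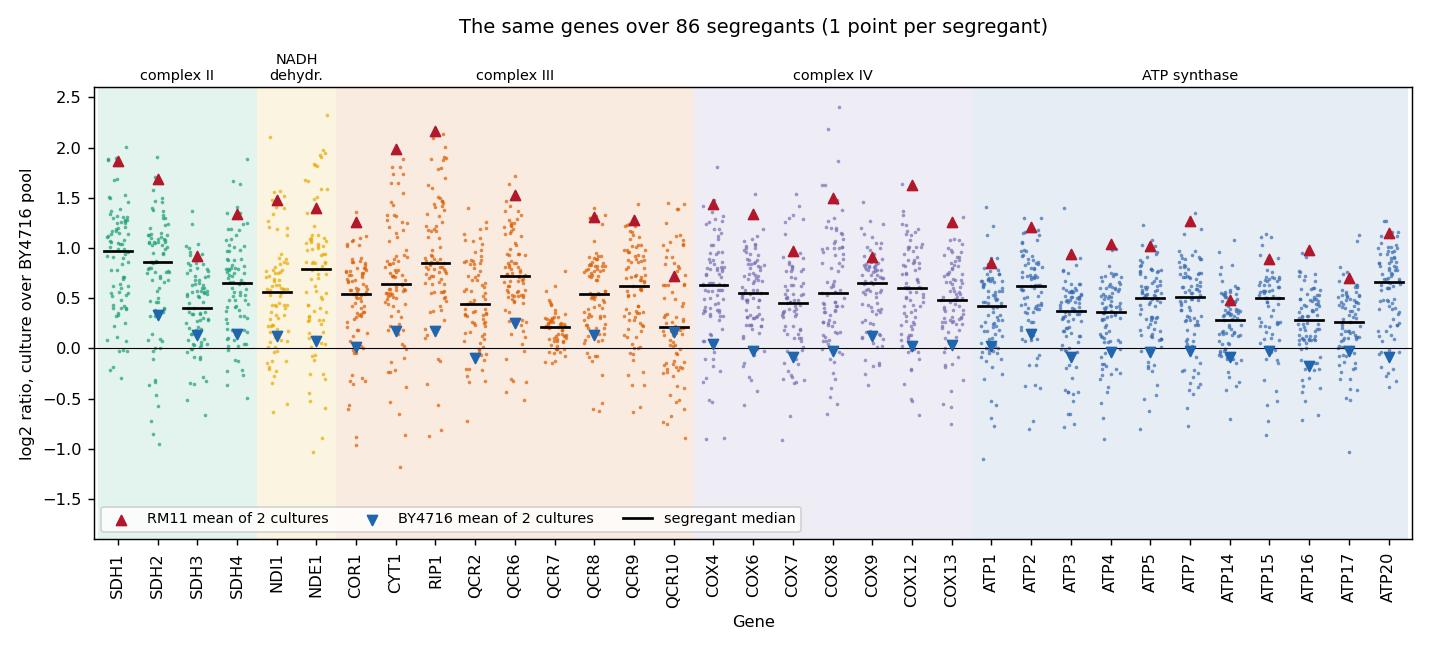
Log2 ratio over the BY4716 pool (vertical axis) of each gene in the segregants (points, spread sideways for display), with the segregant median (bar), the RM11 mean (upward triangle) and the BY4716 mean (downward triangle), shown where both cultures of a strain have a value. The points form a continuous spread that reaches below BY4716 in most genes and rarely passes RM11.

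CYT1 ran between -1.18 and 1.88 over 85 segregants, with a median of 0.64, and 0 of them exceeded both RM11 cultures. RIP1 ran between -0.87 and 2.13 with a median of 0.85. NDE1 had the largest SD of the members, 0.69, with a lowest value of -1.03, a median of 0.79 and a highest value of 2.32. All 3 reached below both BY4716 cultures at the low end, and NDE1 alone passed both RM11 cultures at the high end.

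SDH2 had the largest SD of complex II, 0.59, between -0.95 and 1.91 around a median of 0.86. COX8 and COX4 had the largest of complex IV, 0.59 and 0.51, with COX8 between -0.65 and 2.405 (median 0.55) and COX4 between -0.90 and 1.81 (median 0.63). The 2 arrays of a segregant agreed less for COX8 (r = 0.43 over segregants) than for COX4 (r = 0.81). In the ATP synthase, ATP2 and ATP7 had SDs of 0.44 each, with ATP2 between -0.80 and 1.30 (median 0.62) and ATP7 between -0.78 and 1.35 (median 0.52). In NDI1, the highest value, 2.10, and in NDE1, the highest value, 2.32, were both those of segregant 9-4-d, in which chromosome XIII, the chromosome of both genes, was raised. QCR7 had values in 62 segregants, between -0.14 and 0.77, and was not tested. No member fell in 2 clusters by the mixture rule (0 of 32, beside 1.08% of all 5007 genes, and 0 of 32 without the 6 segregants with a raised chromosome).

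Averaged over the members, RM11 stood at 1.34 and 1.15 and BY4716 at 0.06 and 0.05. Each mean was taken over the members with a value in that culture, so the genes averaged differ between cultures. No parental culture had a value for QCR7. The segregants ran between -0.56 and 1.29 with a median of 0.53. None of the 86 was above both RM11 cultures, 10 were below both BY4716 cultures and 76 lay between. Segregant 15-4-d had the lowest mean, -0.56, with 31 of 33 genes below 0. The next lowest were 14-6-d at -0.39, 9-6-d at -0.31, 13-3-b and 15-2-d at -0.28 each. Segregant 8-4-c had the highest mean, 1.29, followed by 2-3-d at 1.21, 12-2-b at 1.14, 15-3-b at 1.08 and 2-4-a at 1.07. None of those 5 had a member below 0. Of the 80 segregants with no raised chromosome, 0 were above both RM11 cultures and 9 below both BY4716 cultures.

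Raised chromosomes showed in the members that lie on them. In 14-6-d, the 6 members on chromosome IV averaged 0.40, while the other 27 averaged -0.56. In 9-4-d the 3 members on chromosome XIII averaged 1.95 and the others 0.53. In the 4 segregants with chromosome II raised, COR1, ATP1 and ATP3, which lie on it, averaged between 0.68 and 1.39 and the other members between 0.08 and 0.60. COR1, ATP1 and ATP3 each reached their highest value in 13-2-c, at 1.36, 1.41 and 1.39.

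The third comparison set the segregant mean against the midpoint of the parents. Of 29 genes, 7 lay below the midpoint and 0 above with a moderated test built on the limma error, beside 6.30% of all 3193 genes called below and 3.63% called above. The median over the members was -0.14 and over all genes -0.004, and 26 of 29 were below in sign. CYT1 lay furthest below, by -0.41 (SE 0.08, limma-based adjusted p = 0.000347). The others were SDH2 (-0.29), COX12 (-0.27), RIP1 (-0.26), NDI1 (-0.26), ATP4 (-0.22) and ATP7 (-0.19). This count depends on the processing, since 0 passed below after quantile normalization, and it moved widely when a parental culture was left out. The median over the members was -0.03 after quantile normalization, beside 0.008 over all genes. With a parental culture left out it ran between -0.17 and -0.12. The count below was 5 without the 6 segregants with a raised chromosome. The median over the members was then -0.13, beside -0.004 over all genes. Counts over all genes are not given for these settings.

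HAP4 encodes the limiting subunit of the Hap2/3/4/5 activator and HAP1 a heme-responsive activator of cytochrome genes. Strains of S288c background carry a retrotransposon insertion in HAP1 that lowers its activity. HAP4 had log2 ratios of 0.94 and 0.97 in RM11 and 0.13 and 0.24 in BY4716, a difference of 0.77 (SE 0.08, limma adjusted p = 0.00308). In segregants it ran between -0.85 and 1.15 with a median of 0.38. HAP1 had -1.62 and -1.97 in RM11 and 0.22 and 0.07 in BY4716, a difference of -1.94 (SE 0.14, limma adjusted p = 0.000789). In segregants it ran between -1.56 and 0.78 with a median of -0.52. Neither fell in 2 clusters, and the place of the HAP1 probe relative to the insertion was not analysed here.

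Over segregants, nearly every member went with HAP4. Of 32 members with enough values, 31 passed with a positive slope on the HAP4 log ratio and 0 with a negative one in limma at an adjusted p under 0.05, beside 9.25% positive and 7.19% negative of all 5006 genes. The steepest was SDH2, which rose by 1.04 log2 units per unit of HAP4 (SE 0.12, limma adjusted p = 2.69e-10), followed by CYT1 (0.86), RIP1 (0.84), COX4 (0.81) and SDH1 (0.80). The shallowest was ATP17, at 0.42 (SE 0.09, limma adjusted p = 0.000598). NDE1 alone did not pass, with a slope of 0.49 (SE 0.18, limma adjusted p = 0.0513). The median slope was 0.69 in complex II, 0.74 in complex III, 0.67 in complex IV and 0.63 in the ATP synthase. Without the 6 segregants with a raised chromosome, 32 of 32 passed, beside 361 of all 5009 genes.

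Slopes on HAP1 were negative in sign for 32 of 32 members, and the calls fell unevenly over the complexes, a difference that was not tested. Of 32 members, 18 passed with a negative slope and 0 with a positive one in limma, beside 17.1% negative and 11.1% positive of all genes. All 8 tested genes of complex III and 6 of 7 of complex IV passed as negative, as did 1 of 2 NADH dehydrogenase genes, 3 of 11 ATP synthase genes and 0 of 4 complex II genes. NDE1 had the steepest slope, -0.72 (SE 0.12, limma adjusted p = 9.35e-06), then RIP1 at -0.71 (SE 0.10, limma adjusted p = 1.22e-07) and CYT1 at -0.69 (SE 0.10, limma adjusted p = 3.5e-07). COX8 (-0.60), QCR6 (-0.55), COX12 (-0.52) and COX7 (-0.50) followed. COX9 was the exception in complex IV, at -0.12 (SE 0.08, limma adjusted p = 0.291).

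Among the ATP synthase genes, ATP20 (-0.36), ATP16 (-0.27) and ATP4 (-0.24) passed, and the other 8 lay between -0.21 and -0.12. In complex II the slopes lay between -0.27 for SDH2 and -0.09 for SDH1. Of the other lists, 51 of 61 mitochondrial ribosome genes, 33 of 48 ribosome biogenesis genes and 0 of 11 TCA cycle genes passed with a negative slope on HAP1, and by sign alone 61, 47 and 9 of them were negative. A lower HAP1 ratio went with higher members in both parents and segregants, while HAP1 and HAP4 correlated with each other (r = -0.29, rho = -0.32, n = 86 segregants). With both regulators in 1 limma fit, chosen after the data were seen, 16 of 32 members passed with a negative HAP1 slope, beside 18.4% of all 5005 genes, and 31 of 32 with a positive HAP4 slope, beside 10.7%. By complex, the HAP1 calls were then 7 of 8 in complex III, 6 of 7 in complex IV, 2 of 11 in the ATP synthase and 0 of 4 in complex II. Without the 6 segregants with a raised chromosome, and with HAP1 alone in the fit, 19 of 32 members passed as negative. Over all genes 902 of 5009 did, and in the ATP synthase 4 of 11. With the first number of the segregant titles as a block, 14 of 32 passed, beside 427 of all 5006 genes. QCR8, QCR10, ATP4 and ATP16 were then no longer called. With the first principal component of the series as a covariate, 30 of 32 passed, beside 462 of all 5006 genes. They included 10 of 11 genes of the ATP synthase and 3 of 4 of complex II. The unevenness of the calls thus depended on the model. Median slopes in complexes III and IV were -0.39 and -0.47 with HAP1 alone, and -0.50 and -0.56 with this covariate. In the ATP synthase and complex II they were -0.21 and -0.13 with HAP1 alone, and -0.28 and -0.30 with the covariate.

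**Figure D3:**
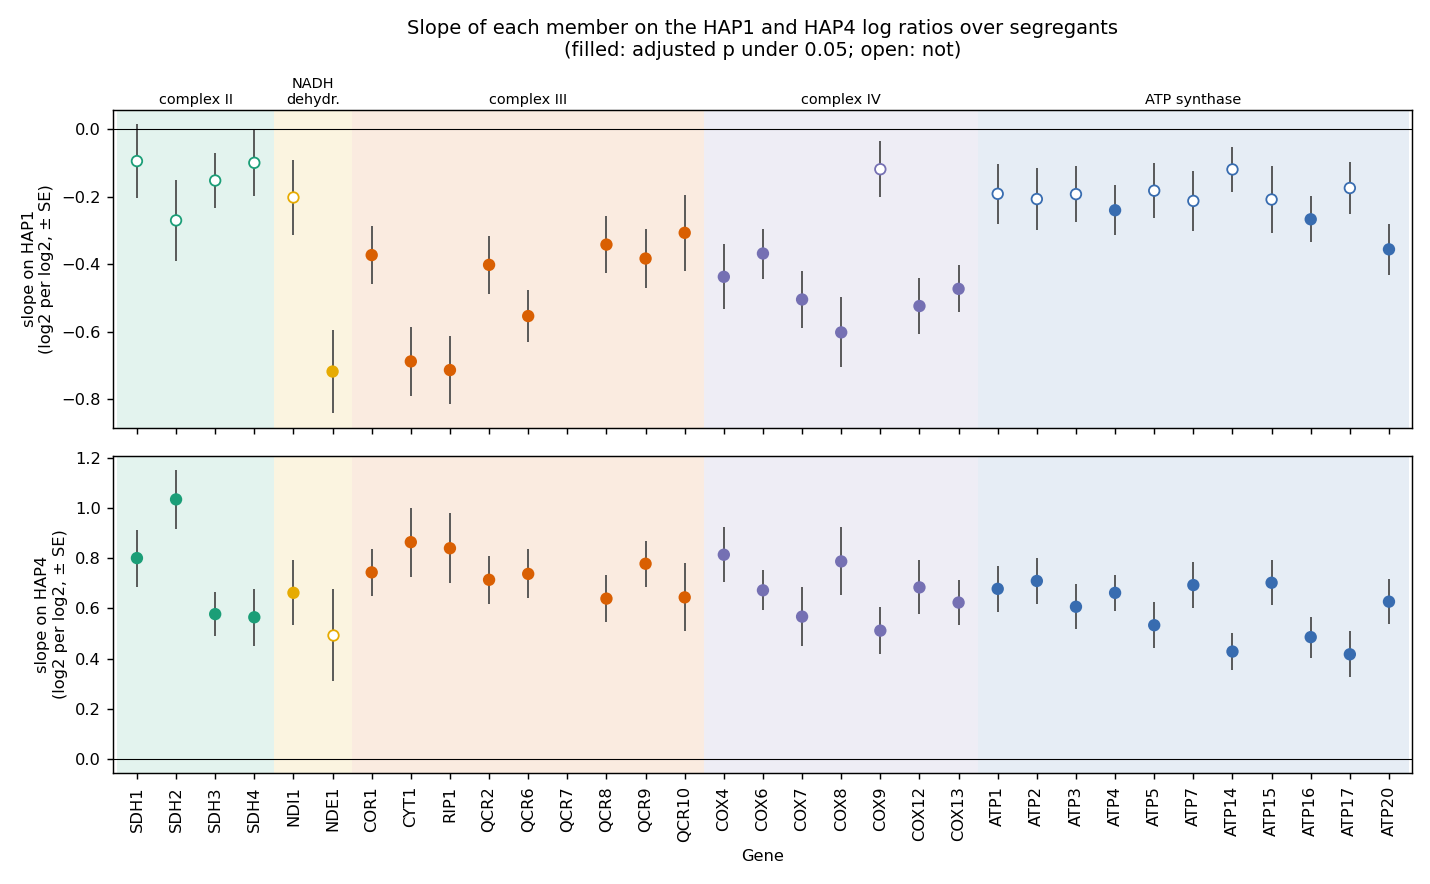
Slope of each member on the HAP1 (upper panel) and HAP4 (lower panel) log2 ratio over segregants, in log2 units per log2 unit, with SE bars. Filled points passed an adjusted p of 0.05 and open points did not, which shows 14 of 15 genes of complexes III and IV passing on HAP1, against 3 of 11 of the ATP synthase and 0 of 4 of complex II.

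The members also varied together over segregants. Over 528 pairs the mean Pearson r was 0.68, with a lowest value of 0.23 and a highest of 0.94, while all pairs of 5007 genes averaged 0.007. These correlations are descriptions, since the genes of a pair share their arrays. With the 2 genes of a pair taken from different arrays of a culture, the mean was 0.59. The same gene taken from the 2 arrays had a mean r of 0.77 over the members. Within complexes, the mean r was 0.77 for complex II, 0.70 for complex III, 0.71 for complex IV and 0.78 for the ATP synthase, and the 2 NADH dehydrogenases had r = 0.58. Between complexes it was 0.71 for complexes III and IV, 0.73 for complex II and the ATP synthase, and 0.51 for the NADH dehydrogenases and the ATP synthase. Without the 6 segregants with a raised chromosome the mean over all pairs was 0.70.

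**Figure D4:**
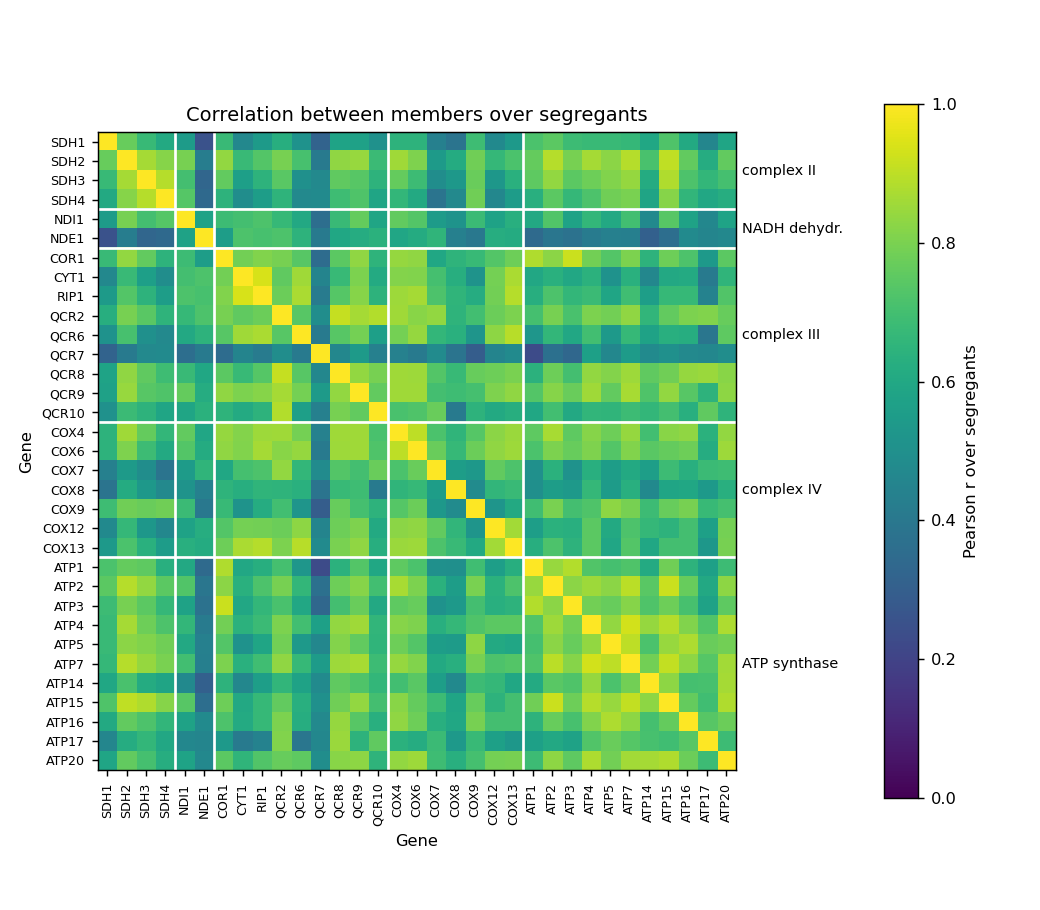
Pearson r over segregants for each pair of members (colour, between 0 and 1), with white lines between complexes and genes in the same order on both axes. ATP synthase and complex II genes form the brightest blocks, and the rows of NDE1 and QCR7 are the darkest.

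The closest pairs were CYT1 and RIP1 (r = 0.94), the electron-transfer proteins of complex III, ATP4 and ATP7 (0.93), both of the stalk, and ATP2 and ATP15 (0.92), of the catalytic head. With the 2 genes taken from different arrays, these pairs had r of 0.73, 0.86 and 0.88. CYT1 and RIP1 were thus no longer the closest of these pairs. Between the 2 arrays of a culture, CYT1 correlated with itself with r of 0.82 and RIP1 with 0.72. For ATP4, ATP7, ATP2 and ATP15 this r was 0.89, 0.90, 0.93 and 0.87. The reason for the changed order was not tested. In the main correlations the lowest pair was QCR7 and ATP1 (0.23). QCR7, QCR10, COX8 and NDE1 also had the lowest correlation with themselves between the 2 arrays of a culture, between 0.39 and 0.51, whereas COR1 had 0.96. COR1 and ATP3, of different complexes but the same chromosome, had r = 0.92. After the median of each chromosome in each segregant was subtracted, it was 0.91, and without 13-2-c it was 0.92. The first axis of a principal component analysis of the members held 69.8% of their variance, with positive weights for all, and the second held 7.04%, with NDE1, CYT1, RIP1, QCR6, COX12, COX7 and COX13 at one end and SDH4, SDH3, ATP5, SDH1 and COX9 at the other. ATP20 and NDI1 were near 0 on it, at -0.01 and 0.02. These axes held 71.8% and 7.47% without the 6 segregants with a raised chromosome.

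The means of complexes III and IV went together (r = 0.95, rho = 0.93, n = 86). The ATP synthase mean followed complex II (r = 0.89, rho = 0.86), complex IV (r = 0.87, rho = 0.86) and complex III (r = 0.86, rho = 0.84). Complex III minus ATP synthase correlated with HAP1 (r = -0.54, rho = -0.62), and r was -0.56 without the 2 segregants farthest from the HAP1 median. The mean of all members had r = 0.68 with HAP4 and -0.44 with HAP1. It had r = 0.76 with the TCA cycle, 0.55 with the mitochondrial ribosome, 0.49 with the general stress response, -0.34 with glycolysis and -0.29 with ribosome biogenesis. Complex II had r = 0.90 with the TCA cycle mean. Without the 6 segregants with a raised chromosome, r was 0.95 for complexes III and IV, -0.58 for complex III minus ATP synthase with HAP1, and for the member mean 0.66 with HAP4, -0.46 with HAP1 and 0.74 with the TCA cycle. In all, 55 such relations were computed, and they are given without p-values.

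**Figure D5:**
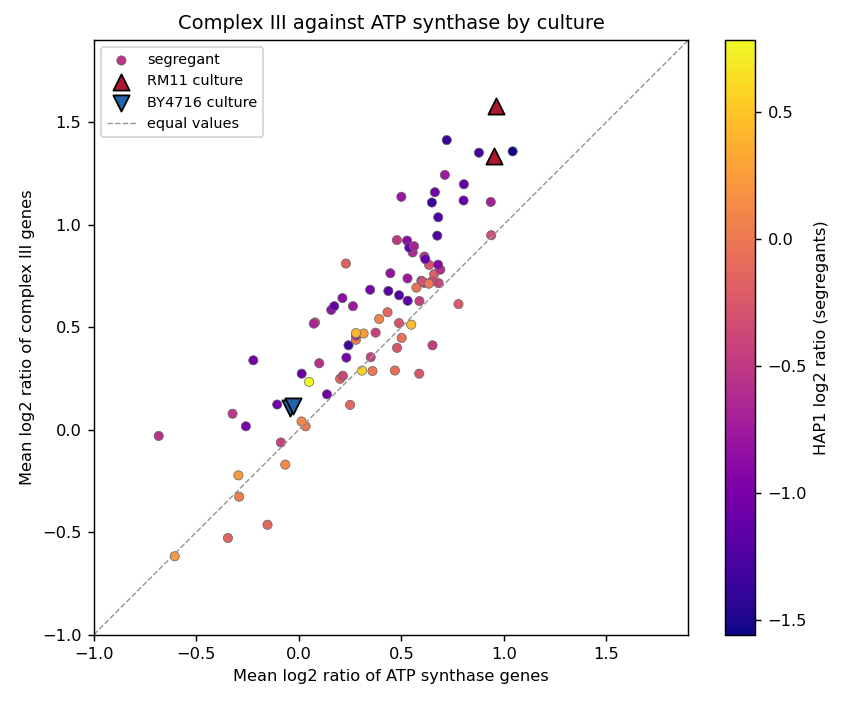
Mean log2 ratio of the complex III genes (vertical axis) against that of the ATP synthase genes (horizontal axis), for segregants (circles, coloured by their HAP1 log2 ratio), RM11 cultures (upward triangles) and BY4716 cultures (downward triangles), with a dashed line of equal values. Most segregants lie above the line, and those with low HAP1 ratios (dark) tend to lie further above it. Both RM11 cultures lie above it, at 1.58 and 1.34 for complex III against 0.96 and 0.95 for ATP synthase. Both BY4716 cultures do too, at 0.10 and 0.12 against -0.05 and -0.03.

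The genes most like the members were found by Pearson r with the member mean over segregants. COX5A came first among genes outside the 33 (r = 0.91), then INH1, an inhibitor of the ATP synthase's reverse reaction (0.90), MIR1 (0.90), UPS2, a mitochondrial phospholipid transfer protein (0.87), and the ATP synthase subunits TIM11 (0.86) and ATP18 (0.84). VRL1 (0.83), MDH1 (0.81), DMO1 (0.80) and KGD2, of the 2-oxoglutarate dehydrogenase complex (0.77), completed the highest 10. The most opposite were HOT13 (-0.73), GPM3 (-0.70), GPD2 and SPO13 (-0.64 each) and GCR1, an activator of glycolytic genes (-0.63). The highest 10 were the same genes without the 6 segregants with a raised chromosome, and so were 4 of the lowest 5, with PIN4 (-0.67) in place of GPD2. GCR1 was lower in RM11 (log2 difference -0.48, limma adjusted p = 0.0230), while GPD2 had a difference of -0.06 (limma adjusted p = 0.629).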

How the data were processed

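The authors deposited log2 ratios of each array per probe, already oriented as culture over pool; the file names no base for the logarithm, which was read as 2, and the authors' scanner, background correction and dye normalization are not given in the sources used here. The 7085 probes were named through the platform annotation, which gave 1 gene symbol to 5645 and 5605 genes after probes of a gene were averaged. Arrays held between 3769 and 6570 values, and precision rests on the number of cultures, since signal intensities were not used. Both arrays of a culture had to have a value.

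RM11 and BY4716 were compared with limma 3.58.1 in R 4.3.3 over genes with all 8 parental arrays. The error had 5.28 degrees of freedom. With 2 cultures each, p-values measure only the spread between these cultures. The segregant tests used genes with values in at least 80% of segregants, the slopes were fitted with limma, and mixtures with mclust 6.1.1 (BIC gain over 10, means over 4 SDs apart, smaller cluster at least 20%). Steps were tested on simulated data. Named genes were the 2 largest and the smallest parental difference and the 2 largest SDs of each complex, members that failed a test most of their complex passed, the 10 most and 5 least correlated genes, and the 2 largest rises and falls of each list. Members and lists were chosen with earlier results of these data known. Alternatives changed the normalization, the arrays or cultures included, the blocks and the filters. A raised chromosome was one with a median over 0.5.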

Additional observations from a re-analysis of the deposited data

How the results depend on the processing

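Of 29 genes, 9 had a value on every array, and all 9 were higher in RM11, beside 161 of 896 over all genes. With a parental culture left out, 1 culture of its strain remained. The median difference of the members then ran between 1.15 and 1.27, beside 0.05 to 0.12 over all genes. Under the other settings the count of 27 higher was between 25 and 31. It was 25 of 29 with arrays centred on the median (479 of 3256 genes) and 31 of 32 with Cy5-titled arrays alone (649 of 4751 genes). The labels do not say that a shared culture number marks a shared batch, so the numbers were not used as pairs. Same-numbered cultures deviated together with r = 0.19 over 3256 genes. The replicate block gave 28 of 29 genes higher, beside 560 of 3256 over all genes. It gave 26 of 29 genes past the variance test, beside 1663 of 3193 over all genes. The variance count moved widely when a culture was left out. Few genes of the series passed without a BY4716 culture, and nearly all passed without an RM11 culture. Genes below the midpoint were 0 after quantile normalization, 2 with Cy3-titled and 13 with Cy5-titled arrays alone, and between 0 and 19 with a culture left out. Genes above it were 1 after quantile normalization and between 0 and 3 with a culture left out. Members called with a negative HAP1 slope numbered 30 of 32 with the first principal component as a covariate, beside 462 of all 5006 genes. By complex, 8 of 8 then passed in complex III, 10 of 11 in the ATP synthase and 3 of 4 in complex II. The median slopes still differed, at -0.50 in complex III, -0.56 in complex IV, -0.28 in the ATP synthase and -0.30 in complex II. After quantile normalization 23 of 32 passed (705 of 5006 genes), with 6 of 11 in the ATP synthase. With the first title number as a block 14 of 32 passed (427 of 5006 genes). Complex III then had 6 of 8 and the ATP synthase 1 of 11. The cause of these shifts was not tested. QCR10 changed sign between the parents, to -0.0947 with Cy3-titled arrays alone and to between -0.21 and 1.32 with a culture left out, the lowest without RM11 replicate 1. HAP1 slopes changed sign for COX9 (0.0094), SDH1 (0.0790) and SDH4 (0.0269) with HAP4 as a second term, and for SDH1 (0.0343) with the first title number as a block; none of these slopes had passed. The precision of every parental value is limited by 2 cultures a strain.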
